A study of Homo sapiens with 6 samples.

Results

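Chemokine ligands are small secreted or membrane-bound proteins that guide leukocytes through G protein-coupled receptors. All genes whose symbol in the array annotation is CXCL, CCL, XCL or CX3CL followed by digits were taken, which gave 36 of the 19775 genes with a symbol of their own, measured by 53 of 54675 probe sets. They comprised 20 CC, 14 CXC, 1 CX3C and 1 XC gene. A gene was represented by its probe set with the highest mean log2 signal over the 6 arrays. Of the 36 genes, 17 reached the median signal of all probe sets on at least 1 array and 19 stayed below it on all 6.

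RNA came from 2 human ovarian carcinoma cell lines, Caov-3 and SKOV-3, and the study asked how the antibody siltuximab (CNTO328), which binds interleukin-6 (IL-6), acts on genes that IL-6 induces. In each line 1 array was hybridised from cells held 4 h in siltuximab before 1 h of IL-6, 1 from cells given IL-6 at 30 ng/ml for 1 h without the antibody, and 1 from untreated cells. For the antibody no dose is stated in the sources used here. Each array carried RNA pooled from 3 flasks, so that a group was 1 sample with no replicate, no cells with the antibody alone were analysed here, and both lines stand for cultured tumour cells without stroma or leukocytes. Values are MAS5 signals on a linear scale. Precision is limited by there being 6 arrays.

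CXC chemokines with a glutamate-leucine-arginine (ELR) motif, such as CXCL1 and CXCL8, draw neutrophils through the receptors CXCR1 and CXCR2 and promote vessel growth. Their genes are classical targets of NF-kB, which binds a kappa B site close to their start, and tumour cells often express them without any added stimulus. IL-6 itself signals through gp130 to STAT3, and CXCL9, CXCL10 and CXCL11, which draw T cells through CXCR3, are best known as interferon targets.

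The kappa B core GGAATTTCC, searched on both strands, was found in 8 of the 29 start windows that RefSeq (GRCh38.p14) gives for 26 of the members, and in 0.461% of all 35116 such windows (162 windows). A window runs from 250 bases before to 50 bases after a gene's start, and some genes have more than 1. All 8 matches were in CXC genes of chromosome 4. They are shown because these genes differ in their signals below although they share the letters, with 15 bases on each side and the match in capitals, on the strand of the gene. In CXCL10 and CXCL11 the match is to the other strand and so reads GGAAATTCC.
CXCL1 (chr4:73869300-73869338, plus strand): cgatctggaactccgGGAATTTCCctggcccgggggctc
CXCL2 (chr4:74099249-74099287, minus strand): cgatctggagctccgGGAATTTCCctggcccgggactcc
CXCL3 (chr4:74038744-74038782, minus strand): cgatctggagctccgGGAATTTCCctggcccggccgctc
CXCL5 (chr4:73998744-73998782, minus strand): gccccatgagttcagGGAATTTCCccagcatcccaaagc
CXCL6 (chr4:73836574-73836612, plus strand): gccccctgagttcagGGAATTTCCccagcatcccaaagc
CXCL8 (chr4:73740463-73740501, plus strand): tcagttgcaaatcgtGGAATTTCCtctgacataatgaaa
CXCL10 (chr4:76023650-76023688, minus strand): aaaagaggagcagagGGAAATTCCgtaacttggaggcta
CXCL11 (chr4:76036122-76036160, minus strand): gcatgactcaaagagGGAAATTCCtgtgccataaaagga
Of the 39 bases of the window of CXCL1, 36 were the same in CXCL3 and 34 in CXCL2, and 38 of 39 were the same in CXCL5 and CXCL6, whereas CXCL8 shared 19 with CXCL1. The first base of the match lay 78 bases before the start in CXCL1 and CXCL3, 77 in CXCL2, 91 in CXCL8 and 75 in CXCL11.

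The whole windows of the 3 GRO genes, of CXCL8 and of CCL20 are given next, because CXCL3 stood apart from its neighbours with IL-6 while CCL20 was the one CC gene at or above the median on all 6 arrays. Capitals mark GGAATTTCC.
CXCL1 (chr4:73869143-73869442, plus strand): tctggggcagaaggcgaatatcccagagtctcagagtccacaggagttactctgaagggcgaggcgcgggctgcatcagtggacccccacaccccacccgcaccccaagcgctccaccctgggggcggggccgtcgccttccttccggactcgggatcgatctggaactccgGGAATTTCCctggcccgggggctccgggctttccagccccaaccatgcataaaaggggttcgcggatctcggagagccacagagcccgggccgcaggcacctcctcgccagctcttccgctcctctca
CXCL2 (chr4:74099146-74099445, minus strand): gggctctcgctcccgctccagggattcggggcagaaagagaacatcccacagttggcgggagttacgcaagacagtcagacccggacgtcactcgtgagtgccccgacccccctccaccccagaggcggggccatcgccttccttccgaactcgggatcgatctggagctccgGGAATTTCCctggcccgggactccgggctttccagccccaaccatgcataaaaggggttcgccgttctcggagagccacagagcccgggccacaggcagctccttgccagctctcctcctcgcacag
CXCL3 (chr4:74038640-74038939, minus strand): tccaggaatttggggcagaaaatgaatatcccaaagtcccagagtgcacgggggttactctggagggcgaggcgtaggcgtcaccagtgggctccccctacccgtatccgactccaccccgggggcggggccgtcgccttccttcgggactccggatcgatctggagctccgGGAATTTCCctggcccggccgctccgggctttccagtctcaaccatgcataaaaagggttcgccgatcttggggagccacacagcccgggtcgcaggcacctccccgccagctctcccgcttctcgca
CXCL8 (chr4:73740319-73740618, plus strand): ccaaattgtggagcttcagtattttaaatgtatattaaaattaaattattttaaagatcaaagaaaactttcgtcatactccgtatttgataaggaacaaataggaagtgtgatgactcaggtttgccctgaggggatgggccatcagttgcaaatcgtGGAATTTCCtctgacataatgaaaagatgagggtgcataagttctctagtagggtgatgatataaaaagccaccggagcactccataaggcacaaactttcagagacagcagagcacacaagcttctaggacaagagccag
CCL20 (chr2:227813592-227813891, plus strand): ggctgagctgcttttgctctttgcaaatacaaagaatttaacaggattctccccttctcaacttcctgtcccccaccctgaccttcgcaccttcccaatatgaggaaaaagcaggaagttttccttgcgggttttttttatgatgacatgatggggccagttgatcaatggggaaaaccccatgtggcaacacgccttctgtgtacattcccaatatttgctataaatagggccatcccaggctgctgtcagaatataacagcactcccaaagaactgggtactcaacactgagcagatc
CCL20 did not hold these letters. A looser kappa B pattern, GGG and CC with 5 bases of any kind between them, which can overlap the core, was in 58.7% of all windows and in 17 of the 29 of members, CCL20 included. A STAT pattern, TTCNNNGAA, was in 6 of the 29, among them CXCL5, CXCL6 and CXCL11, and in 7.66% of all windows, and the AP-1 pattern TGANTCA was in 8 of the 29, among them CXCL8 and CXCL14, and in 7.71% of all. A match describes letters only, and these windows were not assayed here.

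Scaling had set the 2% trimmed mean of each array at 500.06 to 500.07, and the median of all probe sets ran from 72.8 to 89.8. The epithelial keratins KRT8 and KRT18 were high in both lines, with KRT8 at 7201 to 7811 in Caov-3 and 7079 to 8584 in SKOV-3 and KRT18 at 25102 to 29072 and 25949 to 31109, while the leukocyte marker PTPRC was at 25.1 to 35.1 and 1.96 to 34.9, below the median on all 6 arrays. Of 6 epithelial and 4 ovarian carcinoma markers, 4 and 2 were at or above the median on every SKOV-3 array, EPCAM at 1728 to 2223 and PAX8 at 495 to 683 among them. Below it in SKOV-3 were CDH1 (4763 to 5094 in Caov-3 and 11.0 to 27.5 in SKOV-3), KRT19 (7263 to 7936 and 4.37 to 57.9) and MUC16 (593 to 860 and 2.92 to 5.90), and WT1 was below it on all 6 arrays. Of 6 leukocyte markers 1 to 3 reached the median on an array, with summed signals of 868 to 982 in Caov-3 and 378 to 676 in SKOV-3, of which CD14 gave 573 to 667 in Caov-3 and 77.6 to 135 in SKOV-3, and the B cell gene CD79A, above the median on all 6 arrays, 149 to 201 in Caov-3 and 180 to 344 in SKOV-3. The 5 fibroblast and endothelium markers summed to 4820 to 5780 in Caov-3 and 468 to 661 in SKOV-3. Of these sums COL1A1 gave 3802 to 4826 and 217 to 339, and PECAM1 331 to 1162 and 125 to 176. Both genes were above the median on all 6 arrays. COL1A2 and VWF were below it on all 6, and DCN reached it on 1. On the Caov-3 IL-6 array the 5' to 3' signal ratio of the actin control was 0.494, against 0.643 to 0.767 on the other 5, and 503 genes lay at least 2-fold below both other arrays of the line, against 236 to 308. Spiked poly-A controls were 1.51 times their untreated level with IL-6 in Caov-3 and 1.56 times in SKOV-3, and 1.17 and 1.02 times with siltuximab plus IL-6. The part of these in the values below was not tested.

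The 19 genes below the median on all arrays had signals from 1.06 to 76.3, with a median of 14.6. They were 15 CC genes, namely CCL1, CCL4, CCL7, CCL8, CCL11, CCL16, CCL17, CCL18, CCL19, CCL21, CCL22, CCL23, CCL24, CCL25 and CCL27, the CXC genes CXCL5, CXCL13 and CXCL17, and XCL1. Most of these are known as products of leukocytes, lymphoid stroma or endothelium. The highest values among them were 76.3 for the eosinophil attractant CCL24 on the untreated Caov-3 array, 74.5 for the lymphoid homing chemokine CCL21 on the untreated SKOV-3 array and 72.1 for XCL1, a lymphocyte attractant, on the same array. MAS5 signals this low give no order of genes here, and no detection calls were used. For 2 of these genes the lines did not overlap. XCL1 was at 5.07 to 12.2 in Caov-3 and 61.3 to 72.1 in SKOV-3, a log2 difference of -1.73. Its other probe set, also below the median throughout, differed the other way, by 0.71. CCL25 was at 25.8 to 44.5 and 6.78 to 23.8.

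**Figure D1:**
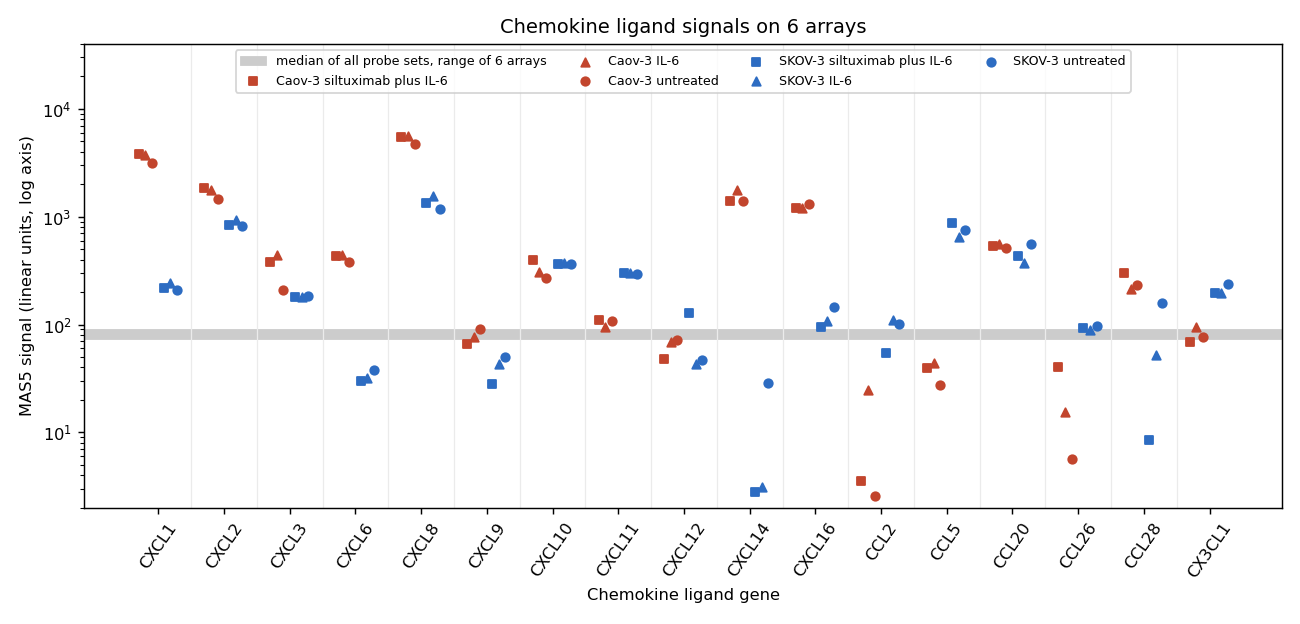
MAS5 signals of the 17 chemokine ligand genes that reached the array median on at least 1 array, on a log axis, with the 3 arrays of Caov-3 left of the 3 of SKOV-3 for each gene and the range of array medians in grey. Signals of different genes come from different probe sets and are not comparable with each other. Within a gene, the colours overlap for CXCL10, CXCL12 and CCL20 and separate for the others, most widely for CXCL1, CXCL6, CXCL14, CXCL16 and CCL5. The arrays of a line mostly lie together.

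The lines differed in which chemokines they expressed. Of the 16 genes that entered the fit (at least 2 arrays at or above their median), 8 were higher in Caov-3 and 5 lower in limma's test at an adjusted p under 0.05 over all genes. Among all 13183 genes tested the test called 67.6%, with 36.9% higher and 30.7% lower, so that 13 of 16 is a share not far above that of all genes. The median difference of the 16 genes was 0.76 on the log2 scale, against 0.08 for all genes tested. Without a filter, 14 of the 36 genes were called (8 higher, 6 lower), against 44.6% of all 19775 genes (24.7% higher, 20% lower), and the median of the 36 was 0.09 against 0.06. Differences are Caov-3 minus SKOV-3 in log2(signal + 17.1), which understates those of dim genes, and the 3 arrays of a line are 3 treatments and not replicates, so that the test measures the spread between treatments and lines in this set.

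Of 6 ELR genes 5 entered the fit, and all 5 were called higher in Caov-3, where 36.9% of all genes tested were. CXCL6 passed the filter only through its Caov-3 arrays, and CXCL5 did not pass it. CXCL1 (GRO-alpha), a neutrophil attractant first described as a melanoma growth factor, was at 3784 with siltuximab plus IL-6, 3736 with IL-6 and 3122 untreated in Caov-3, against 217, 241 and 210.3 in SKOV-3. Its groups lay far apart, with a log2 difference of 3.89 (SE 0.11, limma adjusted p 3.69e-07), which is 14.8-fold on the scale of signal plus pseudocount.

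CXCL8 (interleukin-8), the ligand of both CXCR1 and CXCR2, was at 5492, 5568 and 4736 in Caov-3 in the same order of treatments, against 1331, 1548 and 1174 in SKOV-3. The lines did not overlap, and the difference was 1.95 (SE 0.08, limma adjusted p 1.99e-06). Its probe set can detect related sequences, and the other probe set of the gene gave a like difference of 2.05, with 1884, 2152 and 1686 in Caov-3 against 430.2, 451 and 459.6 in SKOV-3.

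CXCL6 (GCP-2), the other ligand of both receptors, was at 433, 444 and 383 in Caov-3 against 29.8, 31.8 and 37.9 in SKOV-3. It was thus above the median on all 3 Caov-3 arrays and below it on all 3 of SKOV-3, with a difference of 3.12 (SE 0.22, limma adjusted p 1.84e-05). CXCL5 (ENA-78), whose start window differed from that of CXCL6 at 1 base of the 39 shown, had 10.9, 29.8 and 27.1 in Caov-3 and 21.5, 1.06 and 13.5 in SKOV-3 and stayed below the median throughout, as did its other 2 probe sets.

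CXCL2 (GRO-beta) was at 1834, 1783 and 1471 in Caov-3, against 832, 927 and 825 in SKOV-3. The groups did not overlap, and the difference of 0.96 (SE 0.10, limma adjusted p 0.000142) passed the test. The probe set is of a kind that can also detect paralogs, so the share of CXCL1 and CXCL3 transcripts in it is uncertain. Its other 2 probe sets were below the median on all 6 arrays, with differences of -0.12 and -0.91, and the mean of the 3 probe sets gave -0.02 (adjusted p 0.917).

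CXCL3 (GRO-gamma) was at 378, 437 and 211 in Caov-3, against 181, 179.8 and 186 in SKOV-3. The treated Caov-3 arrays stood clear of SKOV-3, the untreated one only just. The difference was 0.79 (SE 0.23, limma adjusted p 0.0187). The call was lost without the IL-6 array of SKOV-3 (0.58, adjusted p 0.0716) or Caov-3 (0.58, 0.0795). It was also lost without the siltuximab array of SKOV-3 (0.69, 0.0777) or Caov-3 (0.69, 0.0787). These checks come in pairs and do not single out a line. Without either line's array of a treatment, the difference rests on the arrays of the other treatments.

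**Figure D2:**
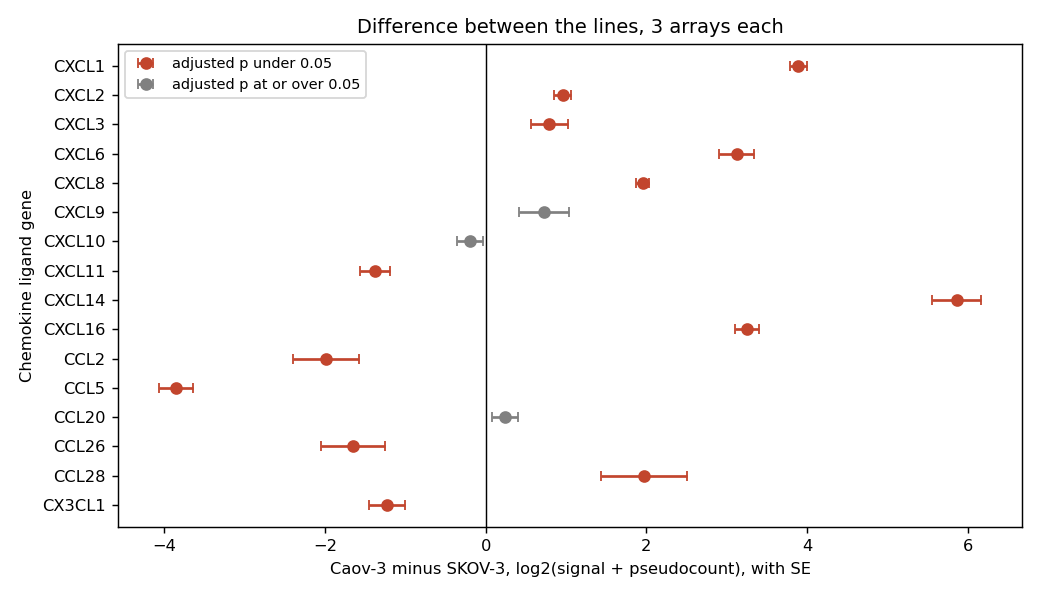
Difference between the lines for the 16 chemokine ligand genes in the fit, as Caov-3 minus SKOV-3 on the log2 scale with its standard error, 3 arrays of each line. Points right of 0 are higher in Caov-3; red marks an adjusted p under 0.05, and CXCL9, CXCL10 and CCL20 in grey did not pass.

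These ELR genes lie side by side on chromosome 4, in the order CXCL8, CXCL6, PF4V1, CXCL1, PF4, PPBP, CXCL5, CXCL3 and CXCL2 among protein-coding genes. Between them were the platelet chemokine genes, whose symbols are of another form. PPBP (CXCL7 in its other name) was at 2.06, 31.8 and 4.46 in Caov-3 against 12.7, 0.845 and 2.96 in SKOV-3, PF4V1 was below the median on all arrays, and PF4 reached it on the Caov-3 IL-6 array alone, at 109 against 81.2 and 48.8 on the other 2 of that line and 14.6 to 41.7 in SKOV-3. Genes high in Caov-3 and genes near or below the median thus lay interspersed along the cluster. Further along, EREG, which encodes the growth factor epiregulin, went the other way, with 223, 253 and 215 in Caov-3 against 1669, 1658 and 1237 in SKOV-3 (difference -2.63, SE 0.13, limma adjusted p 3.42e-06). BTC, in the same stretch, was higher in Caov-3 (difference 0.94, SE 0.23, limma adjusted p 0.00772).

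**Figure D3:**
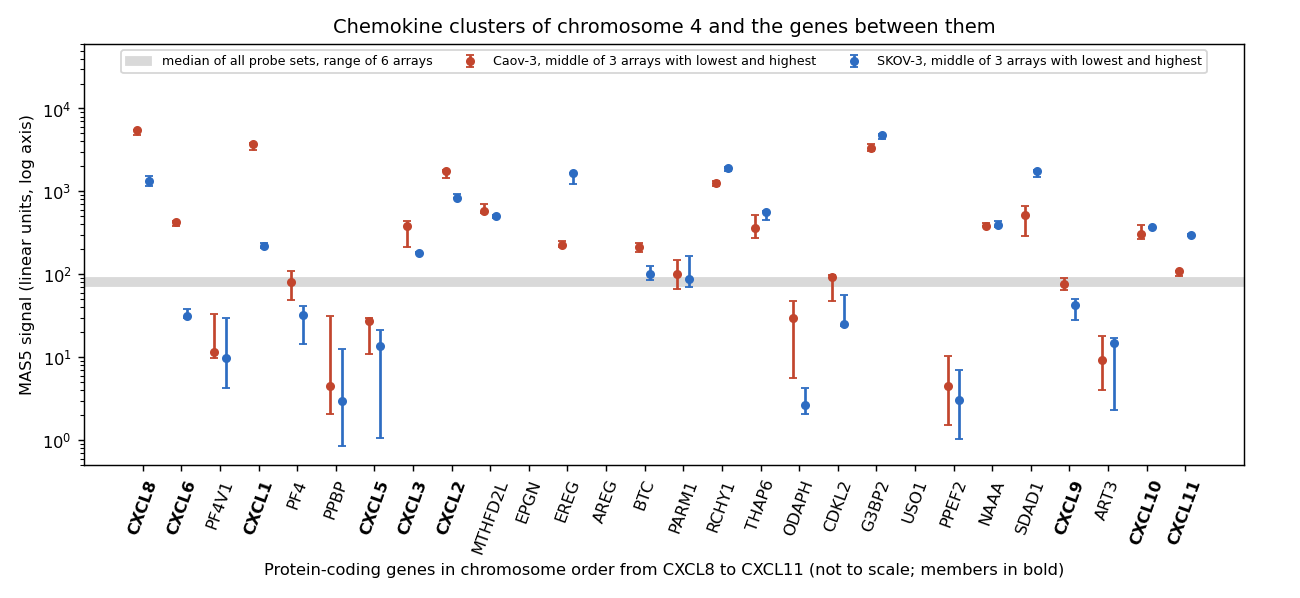
Signals of protein-coding genes in their order on chromosome 4 (RefSeq, GRCh38.p14) from CXCL8 to CXCL11, with the middle of 3 arrays as a point and the lowest and highest as bars, Caov-3 left of SKOV-3; distances are not to scale and chemokine members are in bold. CXCL8, CXCL6, CXCL1, CXCL3 and CXCL2 are higher in Caov-3, PF4V1, PPBP and CXCL5 lie below the grey range of array medians, and CXCL11 at the far end is higher in SKOV-3; EPGN, AREG and USO1 have no point because no probe set with that symbol alone was used.

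Of the 3 CXCR3 ligands at the far end of that stretch, 0 were called higher in Caov-3 and 1 lower. CXCL10 (IP-10), induced by interferons and NF-kB, was at 394, 308 and 267 in Caov-3 and at 361, 375 and 367 in SKOV-3. The lines overlapped (difference -0.19, SE 0.17, limma adjusted p 0.328). CXCL11 (I-TAC) was at 109.6, 95.4 and 109 in Caov-3 against 304, 299 and 292 in SKOV-3. Its lines were clearly apart, with a difference of -1.38 (SE 0.19, limma adjusted p 0.000452), and its other probe set gave -1.73. CXCL9 (MIG) was at 65.3, 76.7 and 90.7 in Caov-3 against 28.4, 42.7 and 50.4 in SKOV-3. It reached the median on 2 Caov-3 arrays, and the difference of 0.73 (SE 0.31, limma adjusted p 0.0714) did not pass.

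Of the other CXC genes, CXCL14 and CXCL16 separated the lines. CXCL14 (BRAK), a chemokine made constitutively by many normal epithelia, was at 1406, 1781 and 1388 in Caov-3, against 2.83, 3.14 and 28.4 in SKOV-3. All SKOV-3 signals were below the median, so the difference of 5.86 (SE 0.31, limma adjusted p 4.68e-06) depends on the pseudocount and ran from 3.74 with a pseudocount of the median to 7.44 with a pseudocount of 1. A further probe set gave 5.90, and the third, below the median on all arrays, 1.16.

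CXCL16, a membrane-anchored chemokine and scavenger receptor that binds CXCR6, was at 1212, 1198 and 1326 in Caov-3, against 95.6, 109 and 146 in SKOV-3. It was above the median in both lines and higher in Caov-3 by 3.25 (SE 0.15, limma adjusted p 2.54e-06). CXCL12 (SDF-1), the stromal ligand of CXCR4, was at 48.3, 69.0 and 71.5 in Caov-3 and 126.9, 43.1 and 46.9 in SKOV-3, with the siltuximab array of SKOV-3 the single one at or above the median, and did not enter the fit.

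CC genes went in either direction. CCL5 (RANTES), a T cell and monocyte attractant, was at 39.8, 43.9 and 27.4 in Caov-3, against 879.8, 654 and 758 in SKOV-3. It was below the median in Caov-3 and above it in SKOV-3 on every array, with a difference of -3.85 (SE 0.21, limma adjusted p 5.58e-06). Its other 2 probe sets gave -3.84 and -3.13.

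CCL2 (MCP-1), the monocyte attractant that acts on CCR2, was at 3.54, 24.8 and 2.57 in Caov-3, against 54.0, 109.9 and 100.3 in SKOV-3, above the median on 2 SKOV-3 arrays (difference -1.99, SE 0.41, limma adjusted p 0.00359). CCL26 (eotaxin-3), an eosinophil attractant, was at 40.4, 15.4 and 5.7 against 92.4, 88.5 and 96.7 (difference -1.65, SE 0.40, limma adjusted p 0.00795). Without the untreated array of either line the difference of CCL26 was -1.32. The call was lost without that of SKOV-3 (limma adjusted p 0.0522) and kept without that of Caov-3 (0.0303). Both genes lay near the array median in SKOV-3 and below it in Caov-3, and the sizes depend on the pseudocount. With a pseudocount of 1 and of the median, the difference was -3.51 and -0.71 for CCL2, -2.49 and -0.64 for CCL26.

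CCL28, a chemokine of mucosal epithelia that acts on CCR10, was at 303, 215 and 232 in Caov-3, against 8.42, 51.9 and 157 in SKOV-3. The 3 Caov-3 arrays were close, and those of SKOV-3 spread widely. The difference was 1.97 (SE 0.53, limma adjusted p 0.0132) and became 1.13 without the siltuximab array of either line (adjusted p 0.0222 without that of SKOV-3 and 0.0397 without that of Caov-3). Its other 2 probe sets were below the median on all SKOV-3 arrays and gave 3.12 and 3.53.

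CCL20 (MIP-3 alpha), the ligand of CCR6 and another NF-kB target, did not separate the lines, with 533, 555 and 508 in Caov-3 and 431, 372 and 561 in SKOV-3 (difference 0.24, SE 0.16, limma adjusted p 0.234). CX3CL1 (fractalkine), a chemokine on a membrane-bound stalk, was at 69.0, 94.1 and 77.1 in Caov-3 against 198, 195 and 237 in SKOV-3. It was lower in Caov-3 without overlap, by a difference of -1.23 (SE 0.23, limma adjusted p 0.00218). The other probe set of CX3CL1 gave -0.64 with lines that overlapped, at 11.6 to 33.3 in Caov-3 and 14.2 to 115 in SKOV-3. It reached the median only on the SKOV-3 array with siltuximab plus IL-6, at 115. Over the 16 genes in the fit, 14 had lines that did not overlap, against 71.5% of all genes tested. Some of them, such as CXCL6, CXCL14 and CCL5, passed the filter only through the line where they were high. Without the filter, 16 of the 36 members had lines that did not overlap, against 53.1% of all 19775 genes.

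**Figure D4:**
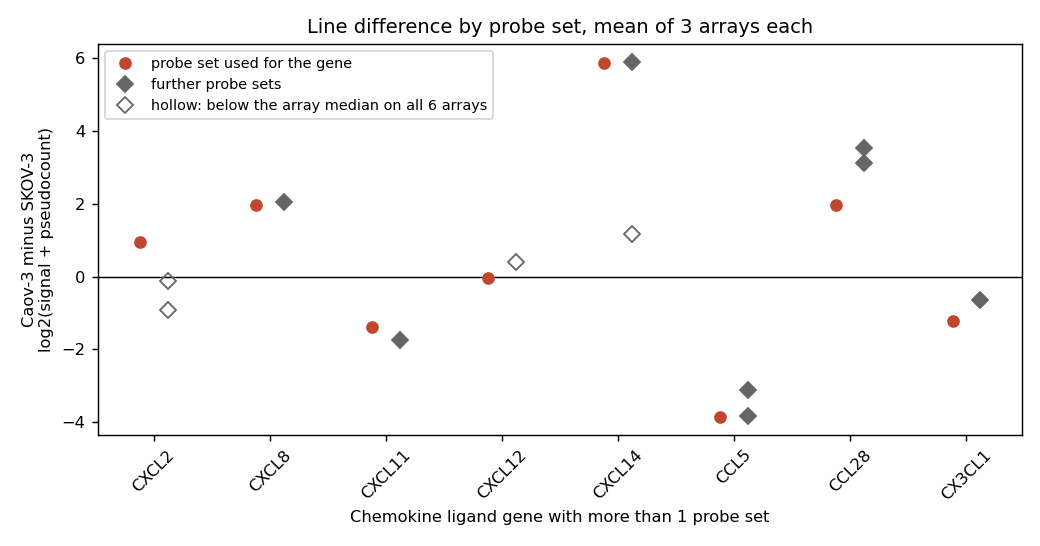
Difference between the lines, Caov-3 minus SKOV-3 on the log2 scale from the mean of 3 arrays each, for every probe set of the 8 plotted genes with more than 1 probe set. Probe sets of CXCL8, CXCL11, CCL5 and CCL28 lie on the same side of 0, whereas for CXCL2 and CXCL12 the further probe sets, all below the array median (hollow), lie on the other side.

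The effect of IL-6 for 1 h was read next. Each fold within a line sets 1 array over 1 array and has no test. In Caov-3, 13 members entered (an array at or above its median) and 1 was at least 1.5-fold higher with IL-6 and 0 at least 1.5-fold lower, where 13.4% of all genes were that far apart, 6.09% higher and 7.32% lower. The gene was CXCL3, at 437 with IL-6 and 211 untreated, a log2 fold of 0.99. That was at percentile 99.5 of the genes of like signal, whose folds had a robust SD of 0.32. The median of the 13 members was 0.20, against 0.08 for all genes.

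The other 4 ELR genes of Caov-3 were nearer to their untreated level with IL-6. CXCL2 was at 0.27, CXCL1 at 0.26, CXCL8 at 0.23 and CXCL6 at 0.20, at percentiles 79.0, 78.1, 81.1 and 68.3 of genes of like signal, where the robust SD of folds was 0.19 to 0.32. The 5 ELR folds ran from 0.16 to 1.15 after quantile normalization and from 0.20 to 1.17 after cyclic loess, all over the same untreated array and for the array with the low actin ratio and the raised poly-A controls. CXCL14 was at 0.36, CXCL10 at 0.19, CCL20 at 0.12, CXCL16 at -0.14, CXCL11 at -0.16 and CCL28 at -0.10.

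In SKOV-3, 13 members entered, of which 0 were at least 1.5-fold higher and 1 lower with IL-6, where 9.97% of all genes were that far apart, 3.9% higher and 6.07% lower. CXCL3, with 179.8 against 186, was at a log2 fold of -0.04. CXCL8 was at 1548 against 1174, a log2 fold of 0.39 at percentile 94.7 of genes of like signal, but its other probe set was at -0.03. CXCL1 was at 0.18, CXCL2 at 0.16, CCL20 at -0.57, just short of 1.5-fold, CXCL16 at -0.37, CCL5 at -0.21 and CXCL10 and CXCL11 at 0.03 each. The gene past 1.5-fold was CCL28, at 51.9 with IL-6 and 157 untreated, a log2 fold of -1.34, and its other 2 probe sets, below the median in this line, were at 0.03 and 0.34.

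In both lines the same way, 0 members were at least 1.5-fold apart with IL-6, against 1.12% of all genes. Over both lines limma called 0 members and 0 of all 13183 genes for IL-6 against untreated, with 1239 genes and 1 member at an unadjusted p under 0.05. That member was CXCL8, with a difference of 0.31 (SE 0.10, adjusted p 0.443), above untreated in both lines on the probe set used. Its other probe set was at 0.35 in Caov-3 and -0.03 in SKOV-3. CXCL3 had a difference of 0.48 (SE 0.28, adjusted p 0.625), which joins 0.99 in Caov-3 and -0.04 in SKOV-3.

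**Figure D5:**
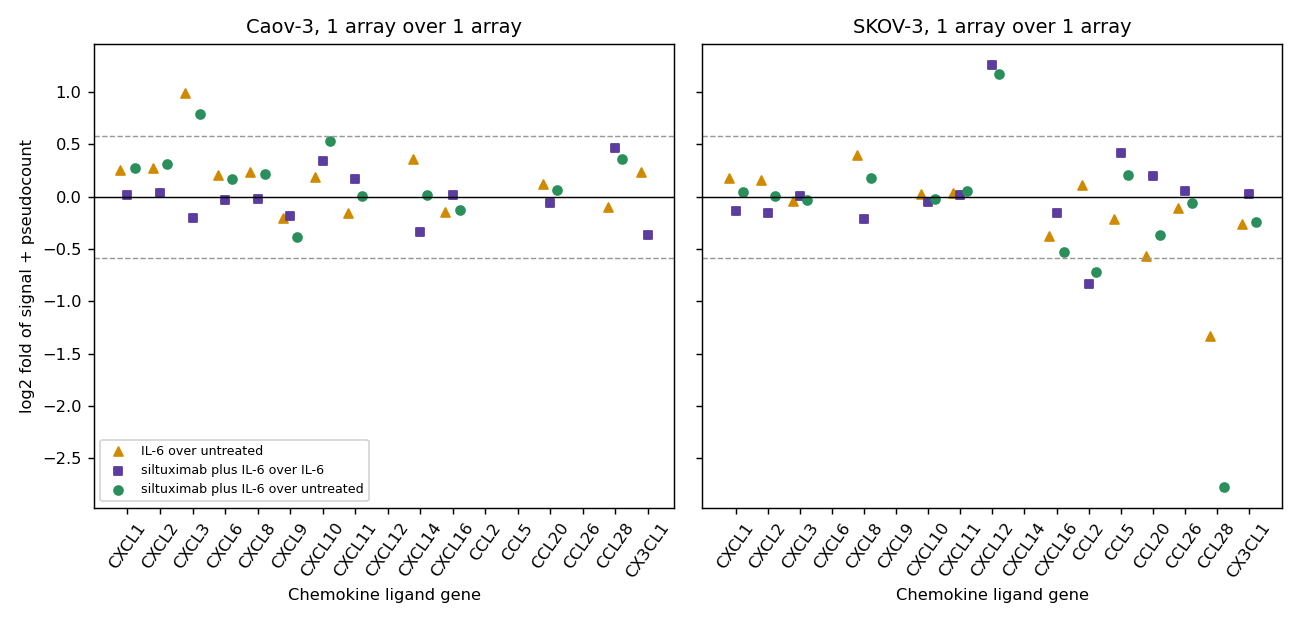
Log2 folds within Caov-3 (left) and SKOV-3 (right) for each chemokine ligand gene that entered, 1 array over 1 array, with dashed lines at 1.5-fold. CXCL3 is the gene past the upper line in Caov-3, with IL-6 and with siltuximab plus IL-6 over untreated, and in SKOV-3 the points beyond the lines belong to CXCL12, CCL2 and CCL28; folds that share an array are not independent.

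Siltuximab before IL-6 was set against IL-6 alone to see which chemokine genes differed with the antibody. In Caov-3, 0 of 13 members were 1.5-fold apart in either direction, where 10.2% of all genes were (6.15% higher, 4.04% lower). CXCL3 had a signal of 378 with siltuximab plus IL-6 and 437 with IL-6, which is a log2 fold of -0.20 (-0.32 after quantile normalization and -0.37 after cyclic loess). CXCL1 was at 0.02, CXCL2 at 0.04, CXCL8 at -0.02 and CXCL6 at -0.04, signs that turned for CXCL1 after cyclic loess (-0.01) and for CXCL8 after quantile normalization (0.04) and cyclic loess (0.02). Wider folds were those of CCL28 at 0.47, CXCL10 at 0.34, CX3CL1 at -0.37 and CXCL14 at -0.34.

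In SKOV-3, 1 of 13 members was at least 1.5-fold higher and 1 lower with the antibody, where 6.72% of all genes were that far apart, 3.08% higher and 3.64% lower. In both lines the same way, 0 members were past 1.5-fold, against 0.572% of all genes. CXCL12 was at 126.9 with siltuximab plus IL-6 and 43.1 with IL-6, a log2 fold of 1.26, while its other probe set, below the median on all arrays, was at -1.27. CCL2 was at 54.0 against 109.9, a log2 fold of -0.84, where the robust SD of genes of like signal was 0.68. CXCL8 was at -0.22, CXCL2 at -0.15, CXCL1 at -0.14, CXCL3 at 0.01, CCL5 at 0.42 and CCL20 at 0.20. Over both lines limma called 0 members and 0 of all genes, with 430 genes and 0 members at an unadjusted p under 0.05.

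Siltuximab plus IL-6 over untreated shares its untreated array with the folds of IL-6, and its values are given beside those. In Caov-3 CXCL3 was at 378 against 211, a log2 fold of 0.79, next to 0.99 with IL-6 alone, and was the 1 of 12 members at least 1.5-fold higher, with 0 lower (7.24% of all genes, 3.57% higher and 3.66% lower). CXCL2 was at 0.31, CXCL1 at 0.28, CXCL8 at 0.21 and CXCL6 at 0.17. CXCL10 was at 0.53.

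In SKOV-3, 1 of 14 members was at least 1.5-fold higher and 2 lower (9.12% of all genes, 3.11% higher and 6.01% lower). In both lines the same way, 0 members were past 1.5-fold, against 0.869% of all genes. CXCL12 was at 1.17, CCL2 at -0.72 and CCL28 at -2.77, the last with 8.42 against 157 and with -0.71 and 0.56 on its other 2 probe sets. CXCL8 was at 0.18, CXCL1 at 0.04, CXCL2 at 0.01 (-0.01 after quantile normalization and after cyclic loess) and CXCL3 at -0.03 (0.00 after quantile normalization). Over both lines limma called 0 members and 0 of all genes, with 756 genes and 0 members at an unadjusted p under 0.05.

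The receptors of these ligands were mostly dim. Of 22 receptor genes 20 were on the array with a symbol of their own, 2 entered the fit and 1 was called, higher in Caov-3, where 67.6% of all genes tested were called. CXCR4, the receptor of CXCL12, was at 1384, 1500.5 and 1397 in Caov-3, against 6.97, 92.4 and 19.5 in SKOV-3 (difference 4.98, SE 0.37, limma adjusted p 2.13e-05). CXCR1 and CXCR2, which bind the ELR chemokines, were at 7.97 to 15.1 and 6.56 to 25.2 in Caov-3 and at 5.91 to 9.39 and 1.67 to 11.1 in SKOV-3, below the median on all 6 arrays.

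Among cytokines and receptors that act upstream of chemokine genes, 15 of 16 entered the fit, and 6 were higher and 8 lower in Caov-3, against 36.9% higher and 30.7% lower among all genes tested. IL1A, IL1RAP, IL6R, TLR4 and TNF passed the filter only through the line where they were high. Without the filter, 6 of the 16 were called higher and 8 lower, against 24.7% and 20% of all 19775 genes. IL1A, which encodes interleukin-1 alpha, an inducer of NF-kB, was at 36.6, 2.54 and 3.94 in Caov-3 against 1319.7, 1227 and 1216 in SKOV-3 (difference -5.50, SE 0.30), and the receptor chain IL1RAP at 17.1 to 73.7 against 960.3 to 1107 (difference -4.37, SE 0.30). IL6R, the receptor of IL-6, was at 25.0, 39.8 and 60.0 in Caov-3, below the median on each array, against 813, 864 and 728 in SKOV-3 (difference -3.84, SE 0.24), and LIFR, a gp130 partner, differed by -3.36 (SE 0.11). IL6 itself was at 3656, 3500 and 3703 in Caov-3 against 540.1, 677 and 781 in SKOV-3 (difference 2.43, SE 0.12). Also higher in Caov-3 were IL1R1 by 2.49 (SE 0.12), IL17RA by 2.10 (SE 0.12) and TNF by 1.94 (SE 0.28). Lower genes with differences of like size were IL1B at -2.16 (SE 0.17), TLR4 at -1.82 (SE 0.33) and TNFRSF1B at -1.81 (SE 0.17).

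Of the regulators of chemokine transcription, 16 of 19 were on the array under their symbol and in the fit, and 3 were higher and 6 lower in Caov-3, or 9 of 16 called against 67.6% of all genes tested. ATF3, a stress-induced repressor, differed by -4.39 (SE 0.14), RELB, an NF-kB subunit, by -1.91 (SE 0.15), CEBPD by 1.48 (SE 0.08) and KHSRP, which promotes decay of AU-rich messengers, by -0.90 (SE 0.09). RELA, the main activating subunit, was at 1991, 2039 and 1866 in Caov-3 and 1985, 1483 and 1661 in SKOV-3 (difference 0.21, SE 0.11, limma adjusted p 0.128) and did not pass. Of 9 genes whose products trim, bind or shed chemokines, 7 entered and 0 were higher and 3 lower, against 36.9% and 30.7% of all genes tested, with ADAM10, which sheds CXCL16 and CX3CL1, at -1.12 (SE 0.08), SDC1 at -0.47 (SE 0.12) and ADAM17 at -0.27 (SE 0.09). In none of these 3 lists was a gene called for a treatment over both lines. That sets them apart from no other genes, since 0 of all 13183 genes tested were called.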

How the data were processed

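The authors deposited linear signal intensities, 1 for each probe set and array, made with Affymetrix Expression Console and MAS5 per the submitters' processing notes, with versions not given in the sources used here. RNA of 3 flasks was pooled per array, per the labels' protocols. Values were taken to log2 after adding 17.1, the 20th percentile of all values of probe sets with 1 symbol, with no further normalization. Of 41091 such probe sets 41037 matched a RefSeq gene record by identifier, with 0 symbols changed; 1801 with several symbols and 11721 with none were left out. A linear model of line and treatment over the 6 arrays (limma 3.58.1, R 4.3.3, prior variance trended on signal) had 2 residual degrees of freedom, with Benjamini-Hochberg adjustment over all 13183 genes that reached the array median on at least 2 arrays. Robust SDs are 1.4826 times the median absolute deviation in 10 groups by signal of the genes that entered a comparison. Members, lists, promoter windows and named genes were chosen with earlier results of these data known, as were the 8 short sequence windows. Named were all members past the median and, from each list, at most 4 called between lines. CXCR1, CXCR2, IL6, IL1R1, IL17RA, TNF, IL1B, TLR4, TNFRSF1B, RELA, EREG and BTC were added after their values were seen. Alternatives were the pseudocount, filter, normalization, probe set, prior, treatment term, fold threshold and leaving out an array. Python 3.11.15 with pandas 2.3.3 and matplotlib 3.10.9 did the rest.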

Additional observations from a re-analysis of the deposited data

Results flagged for a closer look

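CXCL3 was taken up because its folds over untreated, on the deposited scale, lay above 0 in Caov-3 and just below it in SKOV-3, at 0.99 in Caov-3 and -0.041 in SKOV-3 with IL-6, and at 0.79 in Caov-3 and -0.0326 in SKOV-3 with siltuximab plus IL-6. The SKOV-3 folds lie close to 0, the one with siltuximab plus IL-6 at 0.00 after quantile normalization, so that their sign is not settled, and the difference between the lines was not tested, since each rests on 1 array over 1 array. CCL28 with siltuximab plus IL-6 over untreated was at 0.36 in Caov-3 and -2.77 in SKOV-3, likewise not tested, and its other 2 probe sets were at -0.71 and 0.56 in SKOV-3. A probe set for XCL1 and XCL2 together, which no comparison used, was at 90.8 on the SKOV-3 siltuximab plus IL-6 array, above that array's median, against 31.9 on the untreated SKOV-3 array.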

How the results depend on the processing

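The count of 13 members called between the lines became 6 when the filter was raised to the 75th percentile, which left fewer genes to test. It became 9 without _x_at and _s_at probe sets, which took CXCL2, CXCL8, CXCL14 and CCL2 out of the test. Without 1 array the count was 11 to 13. Among single genes CXCL2 turned to -0.0218 when its probe sets were averaged. CCL28 missed the threshold with a prior variance that was not trended (adjusted p 0.0502), and CXCL9 passed it with that prior (0.00467) and when probe sets were averaged (0.0263). With the median as pseudocount the difference between lines was over 1.5 times smaller for CXCL14, CXCL9 (0.32), CXCL6 (1.88), CCL2, CCL26, CCL28 (1.05), CCL5 (-2.56) and CX3CL1 (-0.75), and with 1 it was over 1.5 times larger for CCL2 and CCL26; these changed no call. Over both lines, calls for IL-6, for siltuximab plus IL-6 over IL-6 and over untreated were 0 to 0 without 1 array. Counts of members at least 1.5-fold apart within a line were small. For IL-6 over untreated in Caov-3 the count of 1 became 6 without a filter and 0 at 2-fold. In SKOV-3 it became 7 without a filter, 2 with a pseudocount of 1, quantile normalization or cyclic loess, and 0 at the 75th percentile filter, on averaged probe sets or with _x_at and _s_at ones left out. For siltuximab plus IL-6 over IL-6 the count of 0 in Caov-3 became 6 without a filter and 1 with quantile normalization or cyclic loess. In SKOV-3 the count of 2 became 13 without a filter, 1 with a pseudocount of the median, without _x_at and _s_at probe sets or at 2-fold, and 0 at the 75th percentile filter. For siltuximab plus IL-6 over untreated the count of 1 in Caov-3 became 8 without a filter and 0 at the 75th percentile filter or at 2-fold. In SKOV-3 the count of 3 became 14 without a filter, 1 without _x_at and _s_at probe sets and 0 at the 75th percentile filter. Counts without a filter include genes near the detection limit, whose spread of folds was not computed. Among genes that entered a comparison, the robust SD of folds was 0.679 to 0.878 in the lowest of 10 signal groups. In the highest group it was 0.103 to 0.197. The cause of the higher counts was not tested. CCL28 in SKOV-3 with siltuximab plus IL-6 over untreated ran from -4.07 with a pseudocount of 1 to -1.17 with the median. No paired analysis was possible because each group had 1 array and no replicate numbers link arrays; the line is already a term of the model.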

Other observations

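Of 4 probe sets with several symbols that include a chemokine ligand, the one shared by CCL3, CCL3L1 and CCL3L3, macrophage inflammatory protein genes, was at 45.1, 36.4 and 44.5 in Caov-3 with siltuximab plus IL-6, with IL-6 and untreated, and at 96.0, 79.6 and 124 in SKOV-3. The one shared by CCL14 and its readthrough with CCL15 was at 160.1 on the untreated SKOV-3 array and at 8.05 to 38.2 on the other 5. These probe sets name no single gene and entered no comparison.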
